A study of Mus musculus with 6 samples.

Results

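The synthesis, breakdown and sensing of prostaglandins and leukotrienes were followed with 10 genes, chosen by gene symbol. They are Ptgs1, Ptgs2, Ptgds, Hpgds, Ptges, Hpgd, Ptger4, Alox5, Alox5ap and Ltc4s, and all 10 were found among the 25755 genes of the table. RNA of whole optic nerves was sequenced in bulk from 6 mice of the genotype NF1flox/flox;hGFAP-Cre at an age of 3 months. Sham surgery had been performed in mice 1, 2 and 3, and optic nerve crush (ON-CR) in mice 4, 5 and 6. Mice of both groups carried the same alleles, so that Cre driven by the human GFAP promoter had removed Nf1 from neuroglial progenitors and their descendants but not from microglia, meningeal or vascular cells. No mouse with intact Nf1 is part of the comparison, and an effect of the genotype cannot be read from it.

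Prostaglandins and leukotrienes are lipid signals made from arachidonic acid, which phospholipases release from membranes. In the prostaglandin branch, the cyclooxygenases COX-1 (Ptgs1) and COX-2 (Ptgs2) make prostaglandin H2, and terminal synthases then turn this unstable precursor into prostaglandin D2, prostaglandin E2, thromboxane or others. In the leukotriene branch, 5-lipoxygenase (Alox5) works with its membrane partner FLAP (Alox5ap), and leukotriene C4 synthase (Ltc4s) adds glutathione to the product. In the central nervous system, lipocalin-type prostaglandin D synthase (Ptgds) is made by leptomeningeal cells and oligodendrocytes, whereas Ptgs1, Hpgds and the 5-lipoxygenase genes are known from microglia and macrophages.

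On GRCm38, GENCODE places Ptgs1 at chr2:36230426-36252272 (plus strand), Ptgs2 at chr1:150100031-150108227 (plus strand), Ptgds at chr2:25466709-25470046 (minus strand), Hpgds at chr6:65117293-65144908 (minus strand), Ptges at chr2:30889471-30929863 (minus strand). It places Hpgd at chr8:56294585-56321043 (plus strand), Ptger4 at chr15:5206661-5244187 (minus strand), Alox5 at chr6:116410077-116461178 (minus strand), Alox5ap at chr5:149264767-149288153 (plus strand) and Ltc4s at chr11:50236461-50238616 (minus strand). Values are sums over the exons of each gene, and isoforms were not told apart.

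The values are gene counts that the authors divided by 1 factor per library. Estimated depth was between 17414035 and 18978379 reads in the ON-CR libraries and between 19892873 and 23620997 reads in the sham libraries. Nf1 itself, whose transcript includes that of cells without Cre, was between 343 and 447 in sham and between 380.0 and 438 in ON-CR libraries. The value is a sum over all exons of the gene, so the loss of Nf1 in cells with Cre cannot be read from it. Transcripts of the sex chromosomes also separated the groups. Xist, the RNA of the inactive X chromosome, was between 2.14 and 30.9 in sham mice and between 2708 and 6357 in ON-CR mice, and the Y-linked Ddx3y was between 1291 and 1645 in sham mice, 976 in ON-CR mouse 4, 4.19 in mouse 5 and 0 in mouse 6. Sex and surgery therefore cannot be told apart for any gene below. The library of ON-CR mouse 4 held both Xist, at 2708, and Y-linked transcripts, so whether it comes from 1 animal is not known. Without it, the log2 fold change was 1.46 for Hpgds, 0.42 for Ptgs1 and 0.56 for Ltc4s (limma adjusted p = 0.0105, 0.348 and 0.258). A summed level of 9 T and B cell markers was 14248 in ON-CR mouse 6 and between 237 and 836 in the other 5 libraries. Jchain, a gene of antibody-secreting cells, made up 12738 of the sum in mouse 6, and without it the sum was 1509 there and between 224 and 464 in the other libraries.

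To determine which of these genes differed after ON-CR, all genes were tested together with limma on log2(value + 1). Hpgds was the only member with an adjusted p at or under 0.05, and it was higher after ON-CR, as were 0.971% of all genes tested (2.1% passed in either direction). Hpgds, Ptgs1 and Ltc4s were higher in every ON-CR mouse than in every sham mouse, that is, 3 of 10 members, against 10.5% of all genes. No member was lower without overlap, against 11% of all genes. The median log2 fold change was 0.09 over the members and 0.03 over all genes.

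**Figure D1:**
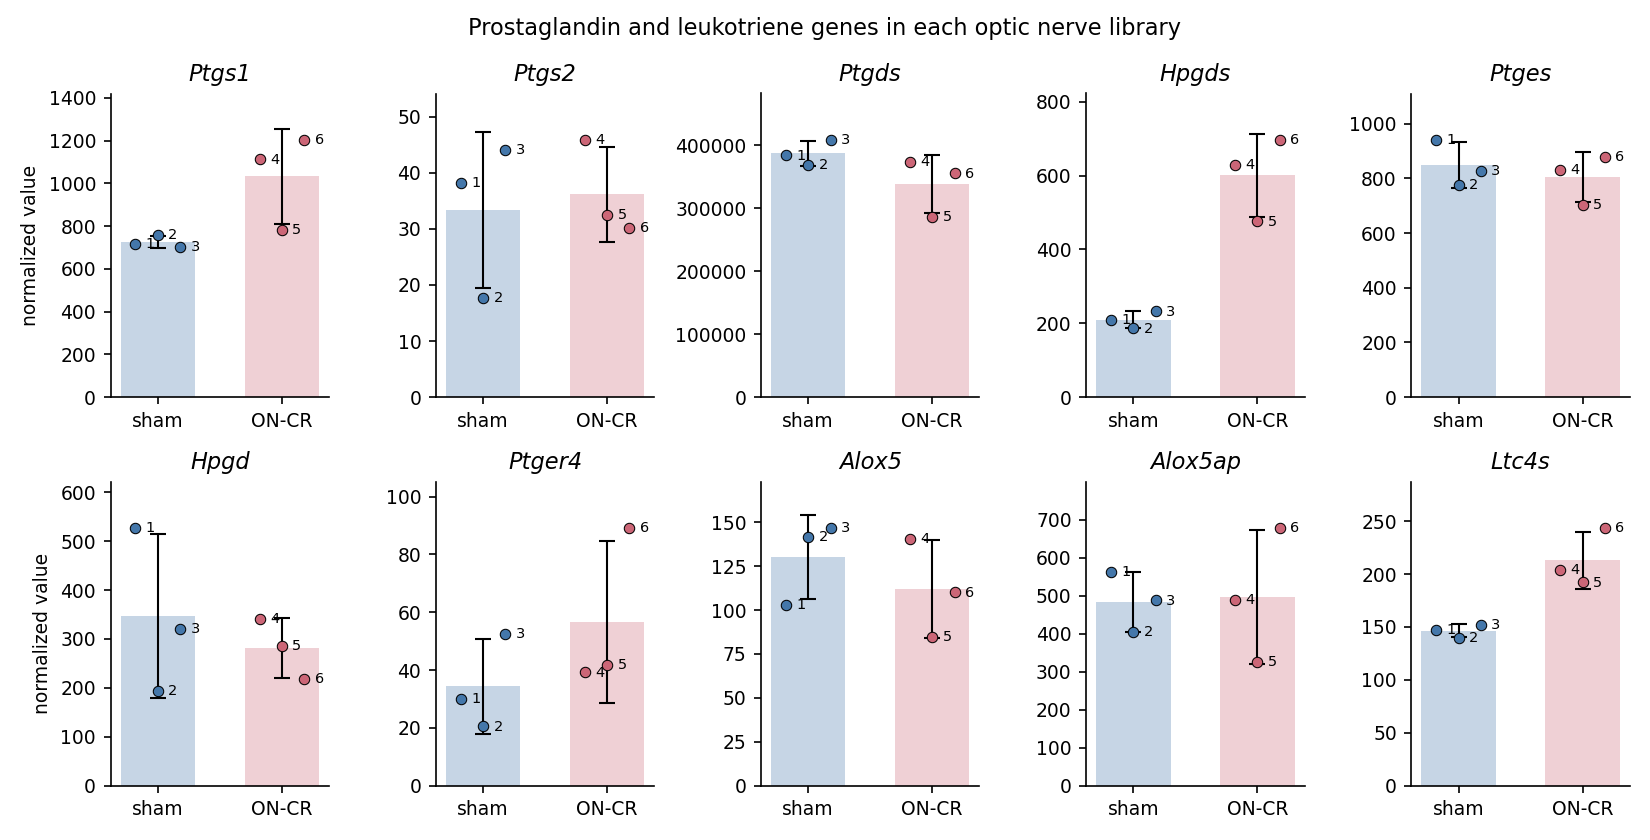
Normalized value (linear axis from 0) of each of the 10 genes in each library. Points are mice, numbered 1 to 6, bars are group means and whiskers are SD (n = 3 per group); Hpgds, Ptgs1 and Ltc4s show no overlap between sham (blue) and ON-CR (red).

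The promoter sequences of these 3 genes are shown because they hold a letter string in common. Capitals mark GGAAGT, 1 of the strings bound by factors of the ETS family, to which the myeloid regulator PU.1 belongs. The shorter GGAA within it was not searched and also occurs in other members, among them Ptgs2, Ptger4 and Alox5. The sequences are from RefSeq on GRCm38.p6, read 5′ to 3′ in the direction of the gene. For Ptgs1 the stretch is chr2:36230176-36230425 on the plus strand, which ends at the annotated start of the gene. For Ltc4s it is chr11:50238617-50238782 on the minus strand, the part of the window that lies upstream of the gene in both annotations used. For Hpgds it is the 30 bases around the match, chr6:65144760-65144789 on the minus strand, since GENCODE places the start of Hpgds farther upstream.
Hpgds: cttttaggtggaGGAAGTggcctctggctg
Ptgs1: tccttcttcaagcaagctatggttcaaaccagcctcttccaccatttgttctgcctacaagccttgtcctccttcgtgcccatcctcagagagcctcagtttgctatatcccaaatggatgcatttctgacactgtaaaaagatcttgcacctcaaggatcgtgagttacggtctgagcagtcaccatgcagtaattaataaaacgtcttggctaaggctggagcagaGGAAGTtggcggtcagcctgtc
Ltc4s: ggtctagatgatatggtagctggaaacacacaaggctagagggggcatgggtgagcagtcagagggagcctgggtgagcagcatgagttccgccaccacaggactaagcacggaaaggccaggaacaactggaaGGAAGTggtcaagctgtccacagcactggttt

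Promoters were found for 9 of the 10 members, all but Alox5ap. On both strands of the 250 bases before the RefSeq start, GGAAGT was present in 3 of these 9, Hpgds, Ptgs1 and Ltc4s, and in 19.7% of 32851 promoters. The match ran from 47 to 42 bases before the start in Hpgds, from 22 to 17 in Ptgs1 and from 116 to 111 in Ltc4s. The longer GAGGAAGT, a form of the PU.1 site that contains GGAAGT, was present in Hpgds and Ptgs1 and in 2.44% of all promoters. Of the other strings searched, the C/EBP site TTGCGCAA was present in Ptgs2, from 69 to 62 bases before its start, and in 0.164% of promoters. TATAAA (12.4% of promoters), ACGTCA (6.47%) and CACGTG (6.02%) were not in the window of any of the 9 members. The strings were chosen after the promoters and the values had been seen, and a match is a description of letters, not of binding.

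At the entry to the prostaglandin branch, the transcript of COX-1 was more abundant than that of COX-2 in both groups, and neither passed the test between groups. Ptgs1, the constitutive cyclooxygenase, was measured at 716, 759 and 702 in the sham nerves of mice 1, 2 and 3, against 1112, 781 and 1204 in the crushed nerves of mice 4, 5 and 6. ON-CR mice 4 and 6 thus stood well above the sham mice, whereas mouse 5 was just above the highest of them. The means were 726 ± 29.7 and 1032 ± 223 (SD, n = 3 per group), a ratio of 1.42, with a log2 fold change of 0.48 (SE 0.16, limma adjusted p = 0.179). Without ON-CR mouse 5, the log2 fold change of Ptgs1 was 0.67 and its adjusted p was 0.0198 by limma, and without any other mouse the adjusted p was between 0.310 and 0.462. Exons of Gm43621 overlap those of Ptgs1 on the other strand, and reads of such a stretch cannot be told apart without strand.

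Ptgs2, the inducible cyclooxygenase, was at 38.2, 17.7 and 44.1 in the sham mice and at 45.9, 32.5 and 30.1 in the ON-CR mice. The groups overlapped, with means of 33.3 ± 13.9 and 36.2 ± 8.49 (SD, n = 3 per group). The log2 fold change was 0.19, with a 95% interval from -0.72 to 1.09 that spans changes in both directions (limma adjusted p = 0.875), and it was -0.20 without sham mouse 2. Per kilobase of merged exons, Ptgs1 was at 187 ± 7.64 and Ptgs2 at 7.28 ± 3.03 in sham mice (SD, n = 3 per group), and after ON-CR Ptgs1 was at 266 ± 57.3 and Ptgs2 at 7.89 ± 1.85. Within each library the value of Ptgs1 was between 15.9 and 42.9 times that of Ptgs2, over the 6 libraries, and this ratio did not separate the groups (exact two-sided permutation p = 0.6, n = 3 against 3, where 0.1 is the smallest p possible).

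Prostaglandin D2 can be made by either of the D synthases, the lipocalin-type enzyme Ptgds and the glutathione-dependent hematopoietic enzyme Hpgds. Their transcripts differed widely in abundance, and Hpgds was higher after ON-CR while Ptgds overlapped between the groups. Hpgds was measured at 209, 186 and 232 in the sham nerves of mice 1, 2 and 3, against 629, 476 and 697 in the crushed nerves of mice 4, 5 and 6. Even the lowest ON-CR library was above the highest sham library by a wide margin. The means were 209 ± 23.0 and 601 ± 113 (SD, n = 3 per group), a ratio of 2.87. The log2 fold change was 1.51 (SE 0.18, 95% interval from 1.12 to 1.90, limma adjusted p = 0.003). When single mice were omitted, the log2 fold change of Hpgds was between 1.39 and 1.66 and its adjusted p by limma between 0.000649 and 0.0467, so no single library carried the call.

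Ptgds was at 383670, 368605 and 408347 in the sham mice and at 373320, 285928 and 354940 in the ON-CR mice. ON-CR mouse 4 lay within the sham range and mouse 5 was the lowest of the 6. The means were 386874 ± 20064 and 338063 ± 46076 (SD, n = 3 per group), a log2 fold change of -0.20 with a 95% interval from -0.61 to 0.20 (limma adjusted p = 0.648). Ptgds held 1.90% of the summed values of a sham library on average and 1.81% of those of an ON-CR library, and by its mean value it ranked 4 among the 25755 genes. Per kilobase of merged exons it ranked 2. Hpgds amounted to 0.0545%, 0.0504% and 0.0568% of the Ptgds value in sham mice 1, 2 and 3, and to 0.169%, 0.166% and 0.196% in ON-CR mice 4, 5 and 6. The groups did not overlap in this share, with the smallest exact two-sided permutation p that 3 against 3 allow (0.1).

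The level of Ptgds can be read beside the cells known to make it. The geometric mean of 10 markers of mature oligodendrocytes, among them Mog, Mag and Mbp, was 30806 ± 3683 in sham and 17381 ± 2313 in ON-CR mice (SD, n = 3 per group), a ratio of 0.564. Of these 10 markers, 7 were lower after ON-CR with an adjusted p at or under 0.05 by limma, against 1.13% of all genes. Markers of meningeal fibroblasts had a geometric mean of 2356 ± 286 in sham and 1921 ± 212 in ON-CR mice (SD, n = 3 per group), again without overlap. Of these, 0 of 10 passed the test, although 7 had an unadjusted p under 0.05 by limma, as did 15.6% of all genes. Crym, 1 of the 7, was higher after ON-CR (log2 fold change 0.93, limma adjusted p = 0.272). Among 5 markers of the arachnoid barrier, 2 passed as lower after ON-CR, against 1.13% of all genes. They were Cdh1 and Slc47a1 (limma adjusted p = 0.0498 and 0.0325). The 5 summed to between 4153 and 5890 in sham and to between 2537 and 3364 in ON-CR mice, and Ptgds was not scaled to them. Relative to the oligodendrocyte markers of the same library, Ptgds was between 10.9 and 15.3 in sham mice and between 19.3 and 19.7 in ON-CR mice. On that scale its log2 fold change was 0.62 (limma adjusted p = 0.012), where the median of all genes was 0.82. Ptgds was below the median gene before scaling too, at -0.20 against 0.03. Dividing by 1 factor per library moves nearly all genes alike, so this order was fixed beforehand. Relative to the meningeal fibroblast markers, Ptgds was at 165 ± 11.9 and 176 ± 8.91 (SD, n = 3 per group), and the groups overlapped, with a log2 fold change of 0.09 where the median of all genes was 0.31. In bulk RNA, fewer cells of a type cannot be told apart from less RNA per cell, and the part of each of these cell types in the level of Ptgds was not tested.

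**Figure D2:**
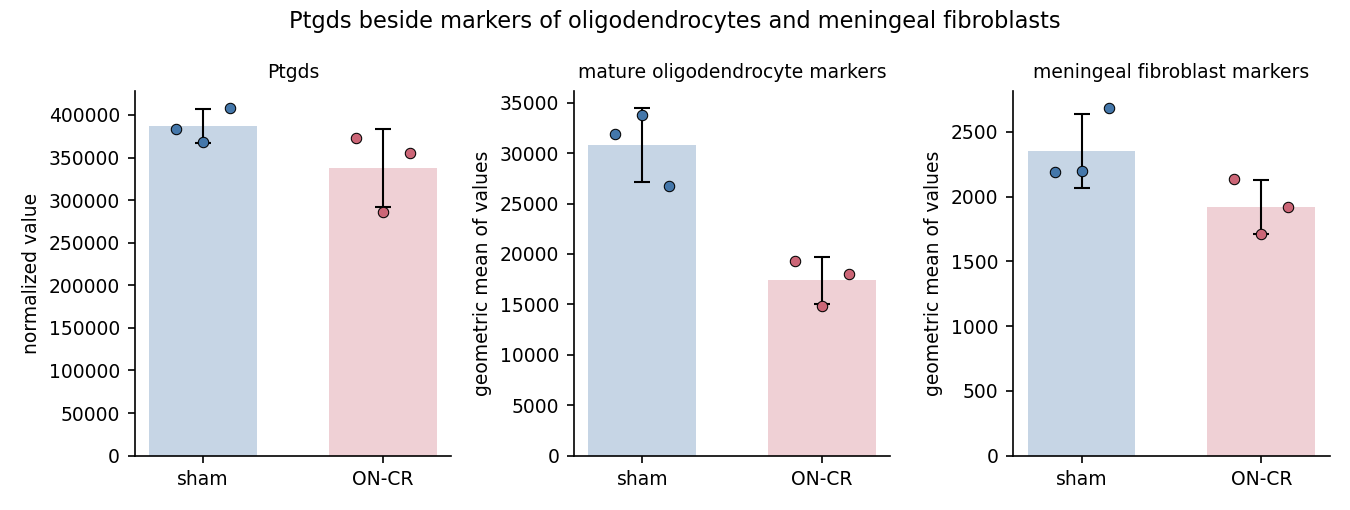
Normalized value of Ptgds (left) and geometric mean of the values of 10 mature oligodendrocyte markers (middle) and 10 meningeal fibroblast markers (right), all on linear axes from 0. Points are mice, bars are means and whiskers are SD (n = 3 per group); the oligodendrocyte markers are 0.564 times as high after ON-CR, while Ptgds overlaps between the groups.

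Prostaglandin E2 is made by the microsomal synthase encoded by Ptges, is taken out of action by 15-hydroxyprostaglandin dehydrogenase (Hpgd), and is sensed among others by the receptor EP4 (Ptger4). None of the 3 differed between the groups by more than the spread between mice. Ptges was at 941, 776 and 827 in the sham mice and at 832, 703 and 878 in the ON-CR mice. Its values were the most even of this arm, with a log2 fold change of -0.08 and a 95% interval from -0.38 to 0.22 (limma adjusted p = 0.835). Scaled to the total per library it was 0.05.

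Hpgd was at 526, 193 and 321 in the sham mice and at 341, 285 and 219 in the ON-CR mice. The sham mice alone spanned more than the ON-CR mice did, with 347 ± 168 against 282 ± 61.0 (SD, n = 3 per group). Its log2 fold change was -0.20 (95% interval from -0.91 to 0.50, limma adjusted p = 0.813) and turned to 0.15 without sham mouse 1.

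Ptger4 was at 30.005, 20.5 and 52.6 after sham surgery, against 39.2, 41.8 and 89.0 after ON-CR. ON-CR mouse 6 was the highest of the 6 libraries, and the other ON-CR mice lay within the sham range. The log2 fold change was 0.71, with the widest interval of the 10 genes, from -0.26 to 1.68 (limma adjusted p = 0.483). Exons of Gm15937 and Ttc33 overlap those of Ptger4 on the other strand.

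Of the 3 members of the leukotriene branch, Ltc4s separated the groups, and Alox5 and Alox5ap did not. Alox5 was at 103, 142 and 147 after sham surgery, against 141, 84.9 and 110.1 after ON-CR, so that the ranges overlapped. Its means were 130.4 ± 23.9 and 112 ± 27.9 (SD, n = 3 per group), and its log2 fold change was -0.23 (95% interval from -0.78 to 0.32, limma adjusted p = 0.710). Alox5ap was at 561, 404 and 487 in the sham mice and at 489, 325 and 677 in the ON-CR mice. ON-CR mouse 5 was the lowest of all 6 libraries for this gene and mouse 6 the highest. The log2 fold change was -0.01 (95% interval from -0.55 to 0.53, limma adjusted p = 0.987), and its sign was not fixed, at 0.26 without ON-CR mouse 5 and 0.12 with scaling to the total per library. Exons of Gm19719 overlap those of Alox5ap on the other strand.

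Ltc4s, the enzyme that commits the pathway to the cysteinyl leukotrienes, was at 147, 139.7 and 152 in the sham mice and at 204, 192 and 243 in the ON-CR mice. The sham mice lay close together, and each ON-CR mouse was above all of them. The means were 146 ± 6.16 and 213 ± 26.8 (SD, n = 3 per group), a ratio of 1.46. The log2 fold change was 0.53 (SE 0.17, 95% interval from 0.15 to 0.92), which had an unadjusted p of 0.0116 and did not pass the adjustment over all genes (limma adjusted p = 0.166). When single mice were omitted, the limma adjusted p was between 0.131 and 0.432. Exons of Gm26542 overlap those of Ltc4s on the other strand. The ratio of Ltc4s to Alox5 was 1.43, 0.986 and 1.04 in sham mice and 1.45, 2.26 and 2.21 in ON-CR mice, without overlap but with ON-CR mouse 4 next to sham mouse 1 (exact two-sided permutation p = 0.1, n = 3 against 3, the smallest possible).

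**Figure D3:**
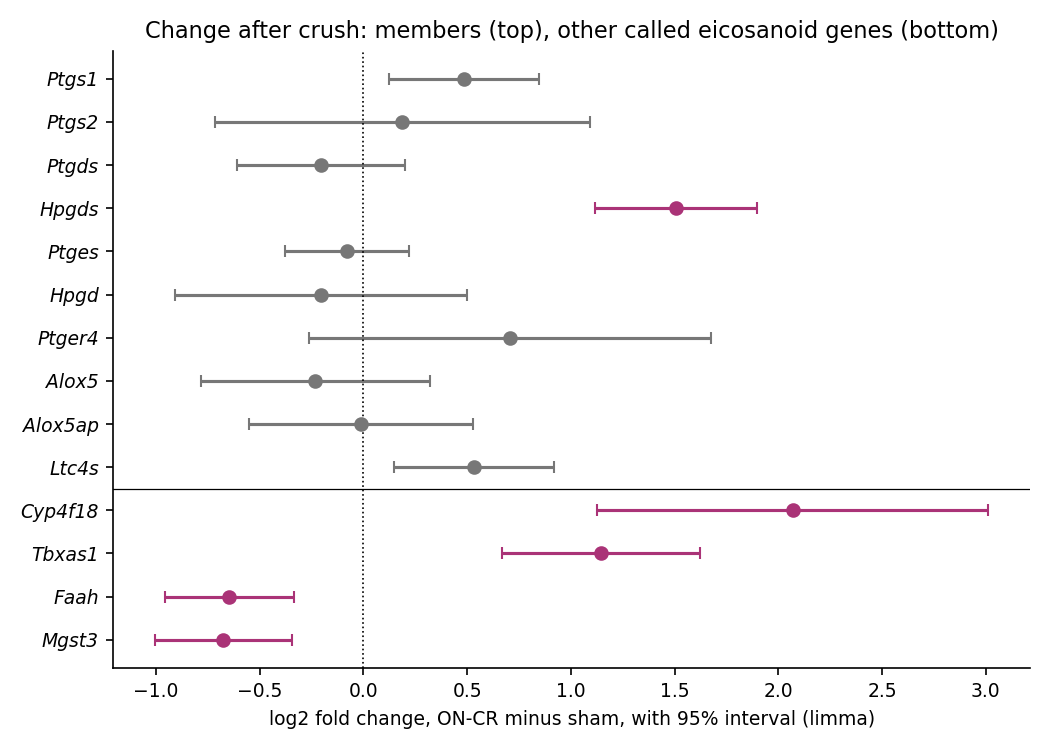
Log2 fold change (ON-CR minus sham, on log2(value + 1)) with its 95% interval by limma for the 10 genes, above the line, and for the 4 other eicosanoid genes that passed the test, below it. Purple marks an adjusted p at or under 0.05, which among the 10 genes was met by Hpgds at 1.51.

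Ordered by level per kilobase of merged exons, Ptgds stood far above the rest in both groups, at 234611 ± 12167 in sham and 205011 ± 27942 in ON-CR mice (SD, n = 3 per group). Alox5ap came next, at 341 ± 55.5 in sham mice, followed by Ptges at 216 ± 21.5, Hpgd at 206 ± 99.9 and Ptgs1 at 187 ± 7.64. Ptges and Hpgd overlapped in their ranges, as did Hpgd and Ptgs1. Ltc4s was at 144 ± 6.07, Hpgds at 32.5 ± 3.6 and Alox5 at 31.8 ± 5.82, and the ranges of the last pair overlapped. Ptgs2 and Ptger4, at 7.28 ± 3.03 and 5.17 ± 2.48, were the lowest and also overlapped. After ON-CR, Hpgds reached 93.5 ± 17.6 per kilobase, above the range of Alox5 at 27.2 ± 6.79, and Ptgs1 at 266 ± 57.3 and Ltc4s at 210.1 ± 26.4 stood before Ptges at 205 ± 23.0. From Alox5ap at 350 ± 124 down to Hpgd at 167 ± 36.3, neighbours in this order overlapped in their ranges.

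The spread within the groups was shared by many of the 10 genes. ON-CR mouse 5 had the lowest value of the ON-CR mice for 7 of them, among them Hpgds, Ptgs1, Ltc4s, Alox5 and Alox5ap, whereas it was the lowest for 36.3% of all genes. ON-CR mouse 6 was the highest for 6 of the 10, against 32.8% of all genes. In the sham group, mouse 2 was the lowest for 8 of 10, against 30.6% of all genes.

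Because Hpgds, Ptgs1 and the leukotriene genes are known from myeloid cells, their values were set beside markers of these cells. The geometric mean of 10 microglia markers was 1386, 1071 and 909 in the sham mice and 1563, 1137 and 1558 in the ON-CR mice, and the groups overlapped. Of these 10 markers, 1 (Aif1) was higher after ON-CR with an adjusted p at or under 0.05, and 0 were lower. The homeostatic markers Tmem119 and P2ry12 had log2 fold changes of -0.27 and -0.35 (limma adjusted p = 0.351 and 0.364). Relative to the microglia marker mean of the same library, Hpgds was at 0.151, 0.174 and 0.255 in sham mice and at 0.402, 0.419 and 0.447 in ON-CR mice. The groups remained apart on this scale, with a log2 fold change of 1.16 (limma adjusted p = 0.0231) where the median of all genes was -0.30. Ptgs1 and Ltc4s overlapped between the groups on the same scale, with log2 fold changes of 0.14 and 0.19 (limma adjusted p = 0.837 and 0.823), above the same median. Before scaling they were at 0.48 and 0.53, where the median of all genes was 0.03. This scaling lowers all genes together, so that 16.3% of them were lower and 2.8% higher in every ON-CR mouse than in every sham mouse. Ptges, which overlapped before scaling, was among the lower ones, with a log2 fold change of -0.42 (limma adjusted p = 0.443) against the median of -0.30. The values of Alox5, Alox5ap, Hpgd, Ptgs2 and Ptger4, at -0.58, -0.36, -0.55, -0.15 and 0.37, came from groups that overlapped. The microglia marker mean was 1.27 times as high after ON-CR, and its part in the higher values of Ptgs1 and Ltc4s was not tested.

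Other cells that could carry these transcripts were followed in the same way. The summed level of 8 border macrophage markers was between 2245 and 2770 in sham and between 2046 and 2646 in ON-CR mice. The test was passed by 0 of 8, and 2 had an unadjusted p under 0.05 by limma, against 15.6% of all genes. These 2 went in opposite directions, Ms4a7 at a log2 fold change of 1.08 and Pf4 at -0.47 (limma adjusted p = 0.117 and 0.305). Mast cells are a classical source of prostaglandin D2 and of leukotriene C4. The 6 mast cell markers in the table summed to between 744 and 783 in sham and to between 574 and 758 in ON-CR mice, and most of this sum was Kit, which other cells also express. Their median log2 fold change was -0.47, with 0 of 6 passing the test by limma. The marker with an unadjusted p under 0.05 was Hdc, the histamine-forming enzyme, which was higher in every ON-CR mouse than in every sham mouse (log2 fold change 0.71, limma adjusted p = 0.159). Neutrophil markers summed to between 76.1 and 341 in sham and to between 171 and 287 in ON-CR mice. Of 8 monocyte and dendritic cell markers, 1 (Itgax) was higher with an adjusted p at or under 0.05, and the other 7 overlapped between the groups. The log2 fold change was above 0 for 6 of the 8 and below 0 for 2, against 47.2% of all genes below 0, with a median of 0.55. Among the other 7 it ran from -0.20 for Xcr1 to 1.93 for Clec9a (limma adjusted p = 0.882 and 0.320). Itgax, which encodes the integrin CD11c, had means of 29.3 ± 2.59 and 288 ± 119 (SD, n = 3 per group), a log2 fold change of 3.16 (limma adjusted p = 0.00168).

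**Figure D4:**
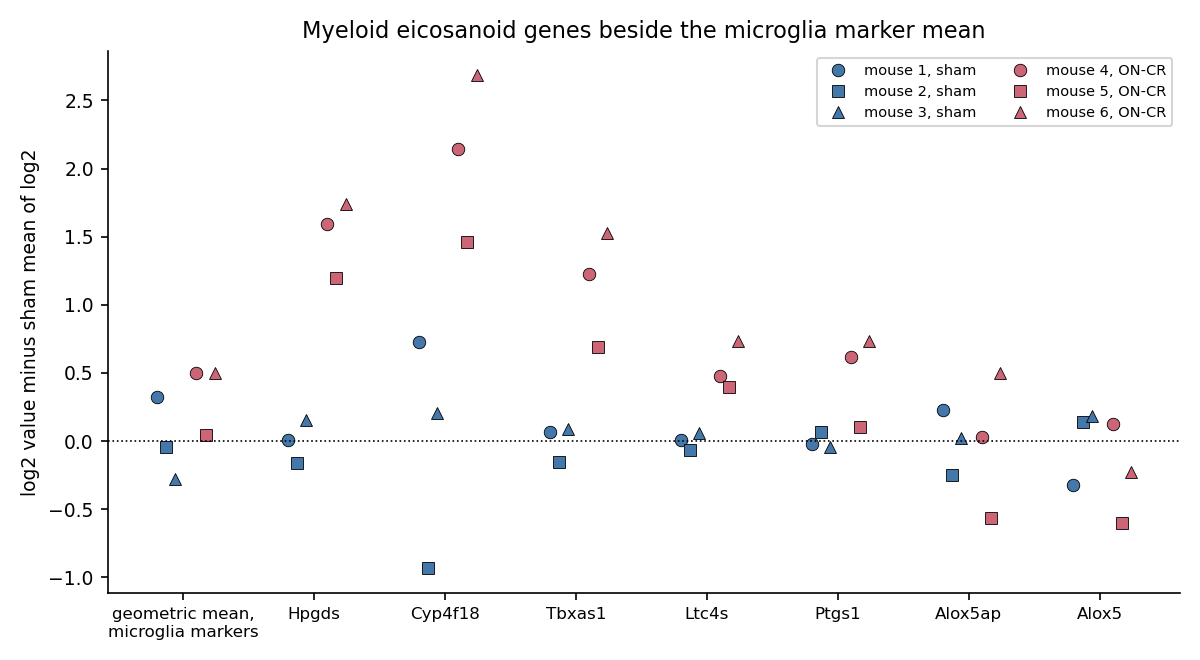
Log2 value of each library minus the sham mean of log2 values, for the geometric mean of 10 microglia markers (first column) and for 7 eicosanoid genes known from myeloid cells. Blue marks sham and red ON-CR mice, with a symbol for each mouse; Hpgds, Cyp4f18, Tbxas1, Ltc4s and Ptgs1 lie higher in all ON-CR mice, and Alox5ap and Alox5 overlap, as do the microglia markers.

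The genes with the profile most like that of a member over the 6 libraries were taken from the genes with a mean value of at least 50. For Hpgds these were Cd84, Itgax and Gpr84 (Pearson's r of log2 values from 0.997 to 0.998, n = 6 libraries). For Ptgs1 they were Carnmt1, Cd274 and Cebpg (r from 0.994 to 0.998, n = 6), for Ltc4s Rps26-ps1, Gm26789 and Gem (r from 0.995 to 0.996, n = 6), and for Ptgds Antxr2, Stk39 and Spon2 (r from 0.988 to 0.998, n = 6). The points share library and depth, and each r is the highest of many candidates, so these values describe the profiles and test nothing.

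A list of 55 other genes of arachidonic acid release, prostanoid and leukotriene metabolism and their receptors was read from the same fit. Of these, 2 were higher and 2 lower after ON-CR with an adjusted p at or under 0.05, against 0.971% and 1.13% of all genes, and 51 did not pass. Without overlap between the groups, 5 were higher and 19 lower, against 10.5% and 11% of all genes. The median log2 fold change over the list was -0.19, and 40 of the 55 values were below 0, against 47.2% of all genes. With scaling to the total per library, which moved the median of all genes from 0.03 to 0.15, the median of the list was -0.06 and 33 values were below 0, against 35.5% of all genes.

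**Figure D5:**
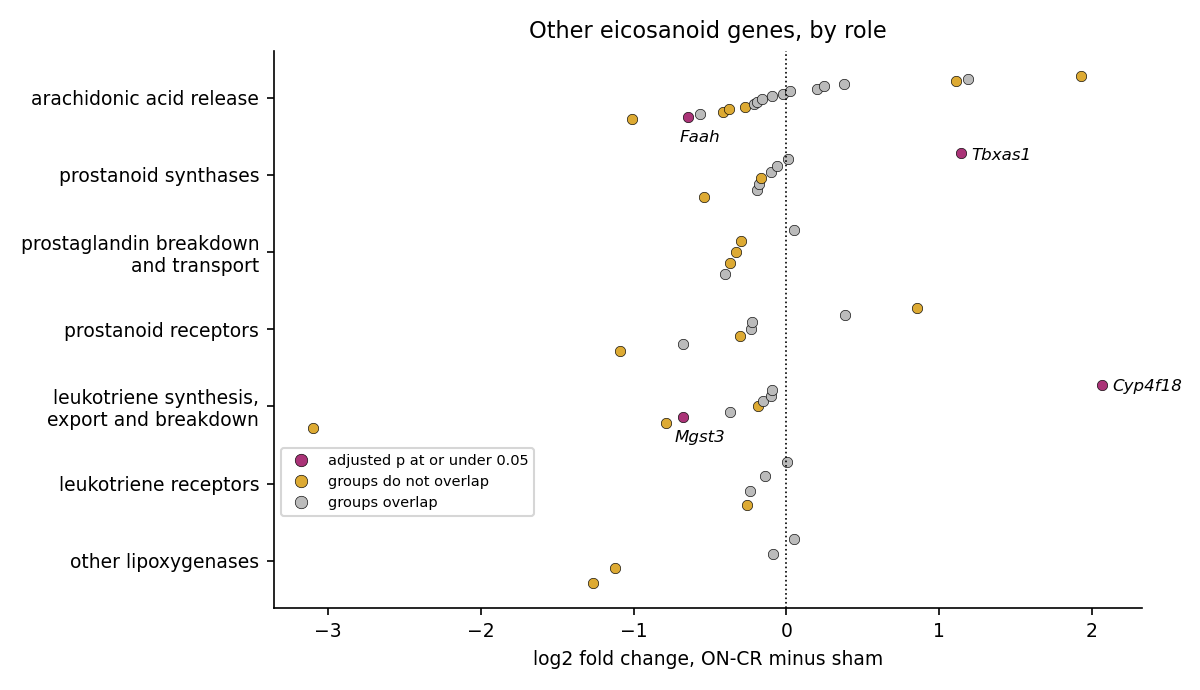
Log2 fold change (ON-CR minus sham) of 55 other eicosanoid genes, in rows by role. Purple marks an adjusted p at or under 0.05 by limma (named genes), yellow marks groups without overlap and grey marks overlap; most points lie left of 0.

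The pair that was higher, Tbxas1 and Cyp4f18, acts on products of the same branches. Tbxas1, which makes thromboxane A2 from the product of the cyclooxygenases, was at 181, 156 and 185 in the sham mice and at 406, 279.9 and 501 in the ON-CR mice. Its log2 fold change was 1.14 (SE 0.21, limma adjusted p = 0.026), and the adjusted p was above 0.05 when any mouse but ON-CR mouse 5 was left out, up to 0.159 without ON-CR mouse 6. The ratio of Tbxas1 to Ptgs1 was between 0.205 and 0.263 in sham and between 0.358 and 0.416 in ON-CR mice (exact two-sided permutation p = 0.1, n = 3 against 3, the smallest possible). Cyp4f18, which inactivates leukotriene B4 by oxidation, was at 78.5, 24.8 and 54.5 in the sham mice and at 209, 129.99 and 304 in the ON-CR mice. Its log2 fold change was 2.07 (SE 0.42, limma adjusted p = 0.0378), and it too lost the call when any mouse but ON-CR mouse 5 was left out, with an adjusted p of up to 0.234. Relative to the microglia marker mean, Tbxas1 and Cyp4f18 were both higher in every ON-CR mouse than in every sham mouse, with log2 fold changes of 0.80 and 1.73 (limma adjusted p = 0.187 and 0.00947).

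The lower pair were Faah and Mgst3, both with modest changes. Faah, a hydrolase that frees arachidonic acid from the endocannabinoid anandamide, went from 750 ± 65.8 to 480 ± 61.4 (SD, n = 3 per group), a log2 fold change of -0.65 (limma adjusted p = 0.0468). Mgst3, a microsomal glutathione transferase related to Ltc4s, went from 1314 ± 232 to 815 ± 60.9, a log2 fold change of -0.67 (limma adjusted p = 0.0493). Both calls were lost in 5 of 6 fits that omitted a single mouse, with a limma adjusted p of up to 0.231 for Faah and 0.241 for Mgst3, each without sham mouse 2. Faah kept its call without ON-CR mouse 4 (limma adjusted p = 0.0428) and Mgst3 without sham mouse 3 (0.0328). With scaling to the total per library, the limma adjusted p was 0.0801 and 0.0622.

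Arachidonic acid release was represented by 18 genes, of which 1 (Faah) was lower, 0 were higher and 17 did not pass. The most abundant genes on this list, Pla2g7 and Plaat3, had log2 fold changes of -0.16 and -0.41 (limma adjusted p = 0.610 and 0.120). Whether the product of each listed gene, Pla2g7 among them, releases arachidonic acid in this tissue was not tested. Among 8 prostanoid synthases, Tbxas1 was higher, and the abundant Ptges3 and Akr1b3 had log2 fold changes of -0.17 and -0.10 (limma adjusted p = 0.494 and 0.767). Of 5 genes of prostaglandin breakdown and transport, 0 passed, although 2 had an unadjusted p under 0.05 by limma, as did 15.6% of all genes. The reductases Ptgr2 and Zadh2 had log2 fold changes of -0.30 and -0.37 (limma adjusted p = 0.293 and 0.233). Of 7 prostanoid receptors, 0 passed and 0 had an unadjusted p under 0.05 by limma. Ptgdr, a receptor for prostaglandin D2, was at 180 ± 58.3 after sham surgery and 156 ± 55.9 in ON-CR mice (SD, n = 3 per group), and Ptgfr, the receptor for prostaglandin F2alpha, at 98.6 ± 31.7 and 81.1 ± 9.13. Ptgdr2, also listed as a prostanoid receptor, was not among the genes with values.

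Among 9 genes of leukotriene synthesis, export and breakdown, Cyp4f18 was higher and Mgst3 lower, and Lta4h, which makes leukotriene B4, had a log2 fold change of -0.10 (limma adjusted p = 0.769). Of the 4 leukotriene receptor genes, 0 passed (1 had an unadjusted p under 0.05 by limma, as did 15.6% of all genes). Cysltr1 was at 114 ± 54.7 after sham surgery and 108 ± 21.2 in ON-CR mice (SD, n = 3 per group). Gpr17, a receptor of the oligodendrocyte lineage that has been described as a sensor of cysteinyl leukotrienes, was at 1382 ± 36.6 in sham and 1154 ± 2.95 in ON-CR mice (SD, n = 3 per group), without overlap (limma adjusted p = 0.258). The other lipoxygenases Alox8 and Alox12 were lower in every ON-CR mouse than in every sham mouse, with log2 fold changes of -1.12 and -1.27 (limma adjusted p = 0.0717 and 0.102). On this list 0 of 4 passed, while 2 had an unadjusted p under 0.05 by limma, against 15.6% of all genes.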

How the data were processed

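Optic nerve RNA of 6 mice, 3 sham and 3 ON-CR by their labels, was compared. The authors aligned and quantified reads with Illumina DRAGEN software on mm10 with Ensembl genes and deposited a median-normalized signal per gene (Partek 10.0 per the labels), that is, estimated counts divided by 1 factor per library. Low values follow a step, and after division by it 66.2% to 68.4% of values above 0 were whole within 0.02 reads, too few for a count test. The count model of the study's methods was therefore replaced by limma 3.58.1 (R 4.3.3) on log2(value + 1), a scale that understates changes of low genes, with a mean-variance trend, no filter and Benjamini-Hochberg adjustment over 25755 genes. With 3 mice per group, the number of mice limits the precision of small changes.

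Members and lists were chosen with earlier results of these data known. Besides the members, genes named were the other eicosanoid genes that passed, the 2 most abundant of each role, the genes closest in profile for 4 members, and markers. Gene positions and merged exon lengths were from GENCODE M21 (GRCm38), promoters from RefSeq. Other pseudocounts, scalings, a filter on low values, other limma fits and leaving out each mouse were tried, and marker scaling was added after the data were seen. Mice are numbered as separate animals in the labels, with different numbers in the groups, but the library of ON-CR mouse 4 held transcripts of both sexes. Nothing states whether counting used strand.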

Additional observations from a re-analysis of the deposited data

How the results depend on the processing

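Of 15 other settings, 14 kept Hpgds higher with an adjusted p at or under 0.05. Without the mean-variance trend its adjusted p was 0.133 by limma, and that fit called 7 genes in all (5 higher, 2 lower), 0 members (2 had an unadjusted p under 0.05) and 0 other eicosanoid genes (12 had one). With each mouse left out, between 67 and 854 of all genes were called, between 39 and 489 higher and between 28 and 365 lower, and the lowest number was without ON-CR mouse 6. Members called were 1 or 2, the second being Ptgs1 without ON-CR mouse 5. Other eicosanoid genes called were between 0 and 4, with 0 to 2 in each direction. Of all genes, 421 were called higher with scaling to the total per library, which moved the median of all genes to 0.15, and 388 with sample quality weights. Of the other eicosanoid genes, 2 were called with a pseudocount of 0.1 and 2 with scaling to the total, 0 of them lower in both cases. TMM scaling called 1 lower and the robust fit 1 higher. Signs turned for members that were not called: Ptgs2 to -0.20 without sham mouse 2 (from -0.20 to 0.43 over single omissions) and to -0.15 relative to microglia markers; Ptges to 0.050 with scaling to the total and 0.015 without ON-CR mouse 5 (from -0.14 to 0.015); Alox5ap to 0.0032 with upper-quartile scaling, 0.12 with scaling to the total, 0.10 with sample quality weights, 0.10 without sham mouse 1 and 0.26 without ON-CR mouse 5 (from -0.27 to 0.26); and Hpgd to 0.15 without sham mouse 1 (from -0.57 to 0.15). Scaling to cell markers was chosen after seeing the data and moves all genes together. The value of Ptgds was 0.62 relative to oligodendrocyte markers and 0.091 relative to meningeal fibroblast markers, where the medians of all genes were 0.82 and 0.31. Its place below the median gene was fixed before scaling, at -0.20 against 0.03, and could hardly change with it. Tbxas1 lost its call relative to microglia markers. Causes were not tested where the setting does not itself show them. No paired analysis was possible because the mice of the 2 groups share no number.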
